A study of Mus musculus with 24 samples.

Results

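The mitosis genes are 48 genes whose products carry a cell through division: the kinase Cdk1 and its cyclins, the Aurora and Polo kinases, the spindle checkpoint, kinesins and other spindle proteins, the kinetochore, cytokinesis and chromosome structure. They were measured in CD4 T cells of wild type (WT) mice and of mice that lack BAF180, a subunit of a chromatin remodelling complex encoded by Pbrm1. Members were chosen as a list of gene symbols by their role in mitosis, and each probe in the table that carries such a symbol, or an older alias of it, was taken. Of the 48 genes, 42 had at least 1 probe, 65 probes in all among the 25697 of the array. The table names 38 of them by their present symbol, Cdk1 was found through its Entrez gene ID under the name Cdc2a, and 3 more (Aurka as Stk6, Nuf2 as Cdca1 and Smc2 as Smc2l1) were found through the RefSeq accession of the probe, which goes beyond a match by symbol or Entrez gene ID. No probe in the table used here stood for Aurkb, Mki67, Cenpf, Racgap1, Ncapg or Smc4. A single probe represented 28 of the genes and more than 1 probe the other 14.

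In a dividing cell many of these genes are transcribed late in the cycle, and some of their products, such as cyclin B1, are destroyed as division ends. Their promoters often hold a short element called the cell cycle gene homology region, through which the DREAM complex represses them in quiescent cells and the MuvB core with B-Myb and FoxM1 activates them in cycling cells, next to CCAAT boxes bound by NF-Y. Naive CD4 T cells rest outside the cycle until the T cell receptor is engaged, then grow, replicate their DNA and divide many times as they become effector cells such as Th2 cells, which make interleukin 4.

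RNA was hybridized to 24 Illumina MouseRef-8 v2 arrays, 3 arrays (replicates A, B and C) for each of 8 groups, namely 4 cell states in each genotype. Resting naive cells were purified to 95% as CD4+CD62L+ cells from spleen and lymph nodes of mice 4 to 6 weeks old and were not treated. Stimulated naive cells were the same cells after 24 h on plates coated with anti-CD3 (1 µg/ml) and anti-CD28 (2 µg/ml). Resting Th2 cells had been started on the same antibodies with IL-4 (10 ng/ml) and anti-IFN-gamma (10 µg/ml), given IL-2 (100 U/ml) after 24 h and expanded in IL-2 (100 U/ml) from day 3. Stimulated Th2 cells were resting Th2 cells treated for 1.5 h with PMA (50 ng/ml) and ionomycin (500 ng/ml). The BAF180-deficient mice carry floxed Pbrm1 alleles deleted by a Cre under the CD4 promoter, so the deletion takes place in developing T cells, CD8 lineage cells included, and the other tissues keep the gene. The labels give the strain of every group as Balb/c, whereas the methods of the study describe a mixed B6-129 background, and the data used here cannot settle which holds. The time at which Th2 cells were taken is not given in the labels.

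Levels are background corrected, quantile normalized intensities on the log2 scale, for the brightest probe of each gene, so that a difference of 1.00 is a doubling. Levels of different genes cannot be ranked against each other, since probes differ in their response. Between 8047 and 10689 probes per array were detected (detection p of at most 0.02), and each group holds 3 arrays. A gene was tested when a probe of it was detected on at least 1 of the 24 arrays, which held for 34 of the 42 mitosis genes and for 10418 genes in all. The 8 members with a probe that no array detected were Ccnb2, Bub1, Kif20a, Hmmr, Cenpe, Nuf2, Ect2 and Smc2.

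The marker genes of CD4 T cells were detected on every array, 7 of 7, with Cd3d, Cd3g or Lck the brightest. For marker genes, brightest names the probe with the strongest signal and does not rank the genes by their RNA. The summed level of the 5 Th2 markers was between 18730 and 21115 on the stimulated Th2 arrays, with Il4 the brightest, and between 370 and 2701 on all others. Cd8b1 was detected on all arrays and Cd8a on none. The resting naive arrays also carried markers of other cells. Of 6 myeloid markers 5 were detected on each of the 6 resting naive arrays, Itgam being the exception, with Lyz2 or Fcer1g the brightest and a summed level between 1562 and 4784, against 117 to 158 on the 18 other arrays. B cell markers summed to between 466 and 1185 on resting naive arrays, with Cd79b the brightest and 4 to 6 of 6 genes detected. The array of WT resting naive replicate C stood apart from the others of its group in several marker lists. Among them, summed myeloid markers were at 4784 against 1562 and 2137 and NK cell markers at 350 against 188 and 214. B cell markers summed to 929 on it against 492 and 491. These markers moved with the groups, and their part in the result was not tested.

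Pbrm1 was measured first as a check of the labels. Its probe read 8.20, 8.72 and 8.69 on the WT resting naive arrays A, B and C and 7.88, 7.28 and 7.41 on the BAF180-deficient ones. In stimulated naive cells the values were 8.29, 8.76 and 8.67 in WT and 6.36, 7.06 and 7.41 in BAF180-deficient cells. Resting Th2 cells gave 9.06, 9.06 and 8.88 in WT and 7.16, 7.23 and 7.02 in BAF180-deficient cells, and stimulated Th2 cells 8.52, 8.14 and 8.21 and 6.56, 6.90 and 7.15. Every BAF180-deficient array was lower than every WT array of its state. The log2 differences were -1.01, -1.63, -1.86 and -1.42 in that order of states (limma adjusted p 0.121, 0.00746, 0.00101 and 0.0141). Whether this probe lies within the deleted exon was not determined, and its signal is not a measure of how complete the deletion was.

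Detection differed between the states. Of the 42 members with a probe, 16 were undetected on all WT resting naive arrays and 15 on all BAF180-deficient ones, against 11 and 9 for stimulated naive, 9 and 8 for resting Th2, and 10 and 11 for stimulated Th2 cells. The 14 members that no resting naive array of either genotype detected were Ccna2, Ccnb2, Melk, Bub1, Ttk, Ube2c, Kif20a, Hmmr, Cenpe, Cenph, Nuf2, Spc25, Ect2 and Smc2. Of these, Ccna2, Melk, Ttk, Ube2c, Cenph and Spc25 were tested only because another state detected them, so these 6 had to differ in signal between states to be tested at all. At the other end, 17 members were detected on all 24 arrays, Cdk1, Birc5, Cdc20, Cenpa and Top2a among them. The arrays measure a pool of cells, in which more cells in division and more RNA of these genes in each cell cannot be told apart.

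Levels of most members differed by state. In WT cells the mean was highest in resting Th2 cells for 31 of the 34 tested members and lowest in resting naive cells for 30, while of all 10418 genes 18.1% were highest in resting Th2 and 34.8% lowest in resting naive cells. The exceptions with another highest state were Melk and Spc24 (stimulated naive) and Ube2c (stimulated Th2). For Melk and Spc24 this holds for the brightest probe, and the other tested probes of each were highest in WT resting Th2 cells. Those with another lowest state were Cenpa (stimulated naive) and Ccnf, Ttk and Nusap1 (stimulated Th2). In BAF180-deficient cells 27 members were highest in resting Th2 and 7 (Cdk1, Aurka, Melk, Kif2c, Cenph, Spc24 and Cdca5) in stimulated naive cells, and 31 were lowest in resting naive cells. These are orders of group means with no test, and several neighbouring means lie within the spread of the replicates. Ccna2, Melk, Ube2c, Cenph and Spc25 are among those lowest in resting naive cells in both genotypes. They were tested only because other states detected them, so this placing was nearly fixed in advance. The placings of Ccna2, Ttk and Ube2c rest on signals mostly under the detection limit.

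**Figure D1:**
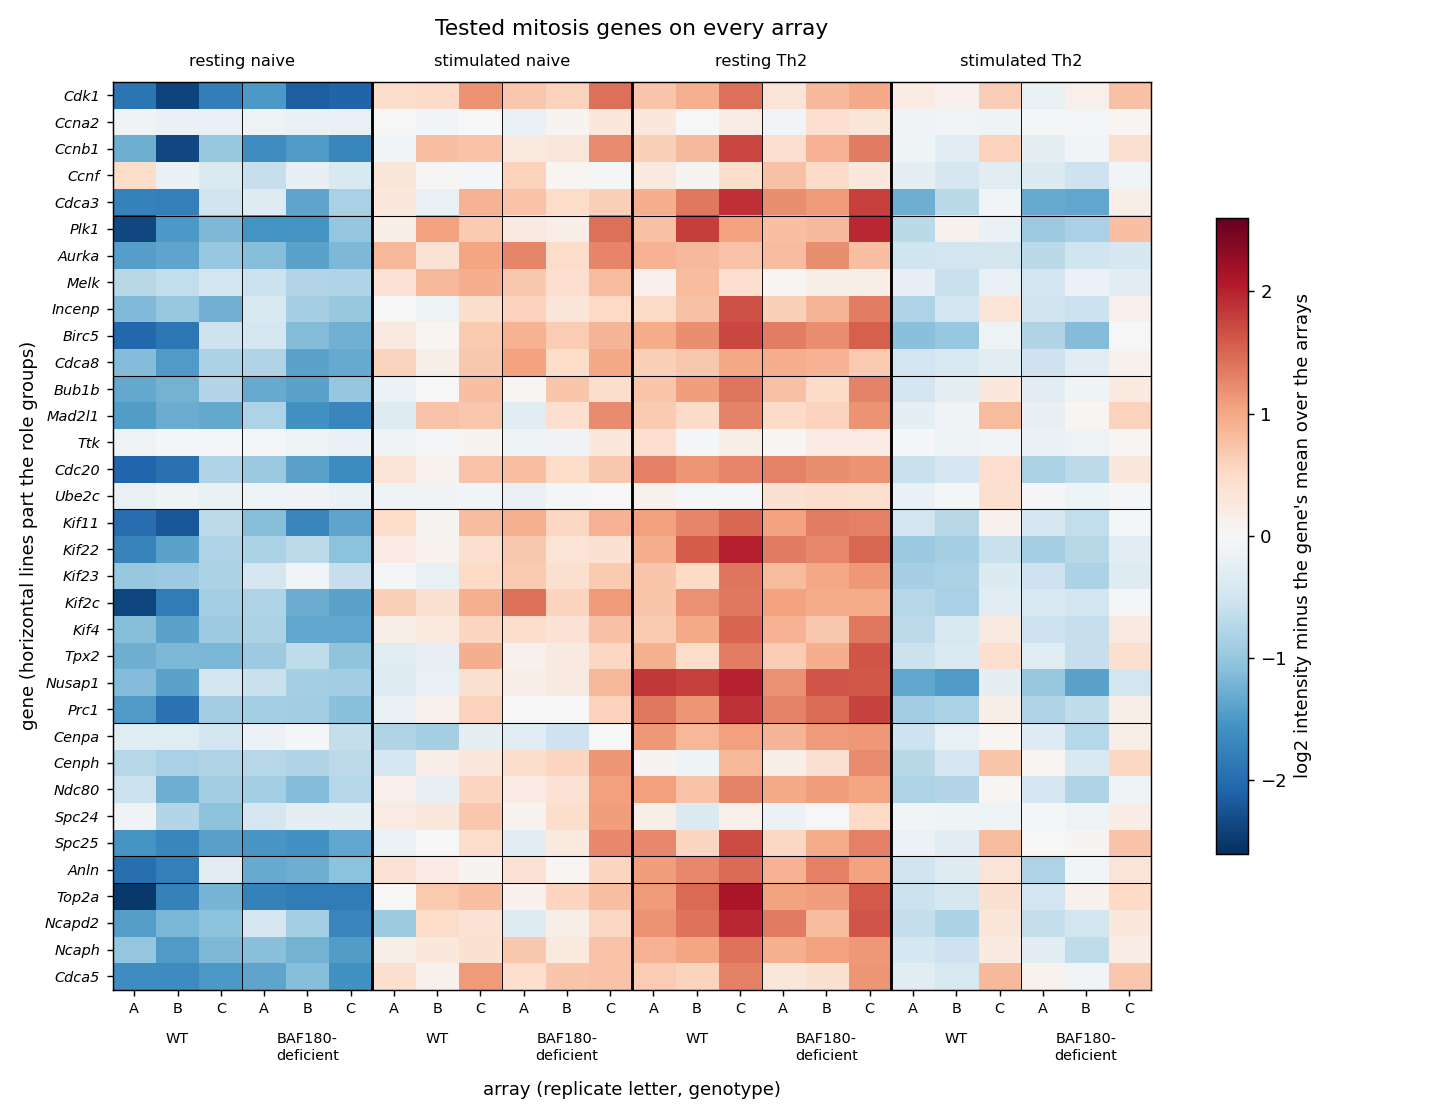
Each tested mitosis gene (34 genes from top to bottom, in their role groups) on each of the 24 arrays (left to right, replicates A, B and C of each genotype and state), as log2 intensity minus the mean of the gene over all arrays. In WT cells 31 of the 34 have their highest mean in resting Th2 cells and 30 their lowest in resting naive cells. The 30 include genes that no resting naive array detected and that were tested only through other states.

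Stimulated naive cells were compared with resting naive cells. In WT cells 28 of the 34 members were higher after stimulation and 0 lower (limma, adjusted p below 0.05), against 23.3% of the 10418 genes tested that were higher and 21.9% that were lower. At an unadjusted p below 0.05, 29 members were higher and 0 lower. For the comparisons of states, shares of all genes are given at the adjusted threshold only, so the unadjusted counts have no share beside them. The median log2 difference of the members was 1.52 (1.48 with undetected groups at their bounds) and that of all genes -0.01. In BAF180-deficient cells 30 members were higher and 0 lower, against 22.1% and 21.3% of all genes, with a median of 1.51 (1.47 with bounds). These counts include members that no resting naive array detected and that were tested through another state, among them Melk (WT) and Cenph (BAF180-deficient). Among members detected on every WT array of both states the largest differences were those of Cdk1 (2.74), Top2a (2.31), Aurka (2.01) and Cdc20 (1.99). Kif2c (2.35) and Plk1 (2.32) each went undetected on 1 WT resting naive array, and with that array raised to its detection limit they stood at 2.12 and 2.17. The lowest differences were those of Cenpa (-0.25), Ttk, Ube2c, Ccna2 and Ccnf (0.12). Ttk, Ube2c and Ccna2 were undetected in WT cells of both states.

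Where no array of a group detected a gene, its level there lies somewhere below the detection limit, and a fold against that group is given only as a lower bound, computed with the lowest signal of any detected probe on each array of the group in place of the value, or with the value itself where that is higher. These lowest detected signals lay between 4.51 and 5.02 across arrays. In WT resting naive cells Ccnb1, Ccnf, Plk1, Bub1b, Kif11, Kif2c, Kif4, Spc24 and Anln were detected on 1 or 2 of the 3 arrays, and their log2 differences from that group use signals under the limit. The same holds for differences from other groups detected on some of their arrays only. Folds of such genes are given with the arrays that did not detect them raised in the same way. Their log2 differences are as fitted, without this step, unless stated otherwise.

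Resting Th2 cells were compared with resting naive cells as well. In WT cells 29 of 34 members were higher in resting Th2 cells and 0 lower, against 17.9% and 17.6% of all genes, with a member median of 2.26 (2.19 with bounds) against 0.00 for all genes. At an unadjusted p below 0.05, 32 were higher and 0 lower. In BAF180-deficient cells 32 were higher and 0 lower, against 18.2% and 17.5%, with a median of 2.15 (2.13 with bounds). There the count at an unadjusted p below 0.05 was 33 higher and 0 lower. The counts of both genotypes include members tested only because another state detected them, among them Cenph (WT) and Ccna2 (BAF180-deficient). This comparison shares its resting naive arrays with the one above, so the comparisons are not independent of each other. Among members detected on every WT array of both states the largest differences were those of Top2a (3.39), Cdk1 (3.07), Prc1 (2.90), Nusap1 (2.88) and Cdc20 (2.84). Kif11 (2.89) and Plk1 (2.88) stood at 2.54 and 2.74 with the undetected arrays raised. The lowest differences were those of Ube2c, Ttk, Ccnf (0.29), Ccna2 and Spc24 (0.61).

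Resting Th2 cells were then set against stimulated naive cells. In WT cells 14 members were higher in resting Th2 cells and 0 lower, against 11.4% and 12.1% of all genes, with a median of 0.77 against -0.01 for all genes. At an unadjusted p below 0.05, 19 were higher and 0 lower. The largest differences were those of Nusap1 (1.92), Cenpa (1.65), Ncapd2 (1.53), Prc1 (1.29) and Kif22 (1.27), and the lowest those of Spc24 (-0.43), Melk (-0.27), Aurka (0.08), Ube2c and Ccnf (0.17). In BAF180-deficient cells 6 were higher (Kif22, Nusap1, Ncapd2, Prc1, Cenpa and Ube2c) and Melk was lower, against 10.9% and 11.1% of all genes, with a median of 0.46 (0.45 with bounds). Ube2c was tested mainly because BAF180-deficient resting Th2 arrays detected it, so no conclusion is drawn from its call. These counts depended on single arrays. Without WT stimulated naive replicate A the WT count was 6, without replicate B of that group 7, and without WT resting Th2 replicate C 6, while without WT stimulated naive replicate C it was 17. The calls of Anln, Birc5, Bub1b, Incenp, Ndc80 and Spc25 in WT cells were each lost without any 1 of 4 of the 6 arrays, as were those of Ncapd2 and Nusap1 in BAF180-deficient cells. In BAF180-deficient cells the count in either direction was 4 without stimulated naive replicate A or without resting Th2 replicate C, in place of 7. The count in WT cells was also 8 when genes that no array detected were kept.

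Treatment of Th2 cells with PMA and ionomycin for 1.5 h went the other way. In WT cells 26 of 34 members were lower in stimulated than in resting Th2 cells and 0 higher, against 15.9% of all genes that were lower and 12.5% that were higher, with a median of -1.31 against -0.01 for all genes. At an unadjusted p below 0.05, 29 were lower and 0 higher. In BAF180-deficient cells 24 were lower and 0 higher, against 15.4% and 11.7%, with a median of -1.26. The count at an unadjusted p below 0.05 was 26 lower and 0 higher there. The largest falls in WT cells were those of Nusap1 (-2.89), Kif22 (-2.32), Cdca3 (-2.08), Birc5 (-2.04) and Prc1 (-2.00), and at the other end stood Ube2c, Spc24 (-0.08), Ccna2, Ttk and Cenph (-0.42, or -0.23 with the 2 undetected stimulated Th2 arrays raised). The value of Spc24 depends on the probe. Its other tested probe read 5.59, 5.93 and 6.02 on WT resting Th2 and 4.36 (under the limit), 5.32 and 5.73 on WT stimulated Th2 arrays. Of the WT calls, those of Ccnb1, Ccnf, Tpx2 and Spc25 were each lost without any 1 of at least 4 of the 6 arrays. Of the BAF180-deficient calls, those of Plk1 and Bub1b were lost without any 1 of 3. The call of Tpx2 was lost without resting Th2 replicate C or stimulated Th2 replicate B. That of Top2a was lost without resting Th2 replicate C or stimulated Th2 replicate A, and that of Anln without stimulated Th2 replicate A. The resting Th2 arrays are shared with the comparisons above.

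Cdk1 is the kinase whose activity starts mitosis, and cyclin B1 (Ccnb1) is its partner at that point. Cdk1 read 5.72, 5.22 and 5.83 on WT resting naive arrays A, B and C and 8.09, 8.11 and 8.79 on stimulated naive arrays. Cdk1 then read 8.35, 8.56 and 9.06 in WT resting Th2 and 7.84, 7.74 and 8.27 in stimulated Th2 cells. Resting naive arrays were lowest without overlap. Stimulated naive arrays overlapped with both Th2 states, which did not overlap with each other. In BAF180-deficient cells Cdk1 read 6.14, 5.49 and 5.55 in resting naive, 8.33, 8.22 and 9.07 in stimulated naive, 7.97, 8.48 and 8.62 in resting Th2 and 7.44, 7.76 and 8.38 in stimulated Th2 cells. Within each state its ranges in the genotypes overlapped. Cdk1 showed the largest member difference between stimulated and resting naive WT cells, 2.74 (SE 0.29, 6.7-fold, limma adjusted p 1.6e-07), and 2.81 in BAF180-deficient cells. Its difference between stimulated and resting Th2 WT cells, -0.71, did not pass the test (limma adjusted p 0.0765) and passed with the replicate letter as a block (limma adjusted p 0.0166). The values come from 1 of 3 probes for Cdk1, the others being undetected on every array, with levels between 4.14 and 4.41.

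Ccnb1 read 5.86, 4.77 and 6.15 on WT resting naive arrays A, B and C and 7.06, 7.91 and 7.88 on stimulated naive ones. Resting Th2 cells gave Ccnb1 levels of 7.75, 7.98 and 8.87 and stimulated Th2 cells 7.03, 6.85 and 7.73 in WT. All stimulated naive and Th2 arrays were above all resting naive arrays. In BAF180-deficient cells the Ccnb1 levels were 5.51, 5.66 and 5.43 (resting naive), 7.40, 7.42 and 8.36 (stimulated naive), 7.57, 8.04 and 8.49 (resting Th2) and 6.88, 7.06 and 7.55 (stimulated Th2), again with resting naive lowest and without a gap between genotypes. Ccnb1 rose at least 3.96-fold with naive cell stimulation in WT cells (log2 2.02, limma adjusted p 0.000142). It fell by 1.00 on the log2 scale with stimulation of WT Th2 cells (limma adjusted p 0.0496), a call lost without any 1 of 4 of the 6 arrays compared (resting Th2 B or C, stimulated Th2 A or B).

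Ccna2, cyclin A2, stayed near the background, detected on 5 of the 24 arrays. Its WT levels were 4.30, 4.21 and 4.23 in resting naive, 4.37, 4.32 and 4.40 in stimulated naive, 4.66, 4.38 and 4.59 in resting Th2 and 4.30, 4.32 and 4.29 in stimulated Th2 cells. Ccna2 in BAF180-deficient cells read 4.26, 4.21 and 4.20, 4.21, 4.46 and 4.67, 4.32, 4.81 and 4.70 and 4.35, 4.33 and 4.44 in the same order of states. The highest array of each genotype was a resting Th2 array, and the ranges of resting Th2 and stimulated naive arrays overlapped. In BAF180-deficient cells its difference between resting Th2 and resting naive cells passed the test (limma adjusted p 0.024), and no fold is given because the lower bound does not exceed 1. Ccna2 was tested only because states other than resting naive detected it, so no conclusion is drawn from this call. This call was lost without replicate B or C of either group. Of the other genes in this role group, Cdca3, which helps trigger entry into mitosis, rose by 1.68 with naive stimulation and fell by 2.08 with Th2 stimulation in WT cells (limma adjusted p 0.00268 and 0.000713). Cyclin F (Ccnf), a ubiquitin ligase subunit, differed by 0.12 with naive stimulation and by 0.29 between resting Th2 and resting naive WT cells, neither of which passed. Ccnf fell by 0.60 with Th2 stimulation (limma adjusted p 0.0341), a call kept only when the array left out was resting Th2 replicate B. Of the 5 tested genes of this group 3 rose with naive stimulation in WT cells and 4, with Ccnf, in BAF180-deficient cells. Ccnf differed by 0.60 there (limma adjusted p 0.022), or by 0.41 with undetected resting naive arrays raised. This call was lost without BAF180-deficient resting naive replicate A or BAF180-deficient stimulated naive replicate A. The test between the genotypes in that response did not pass (limma adjusted p 1).

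**Figure D2:**
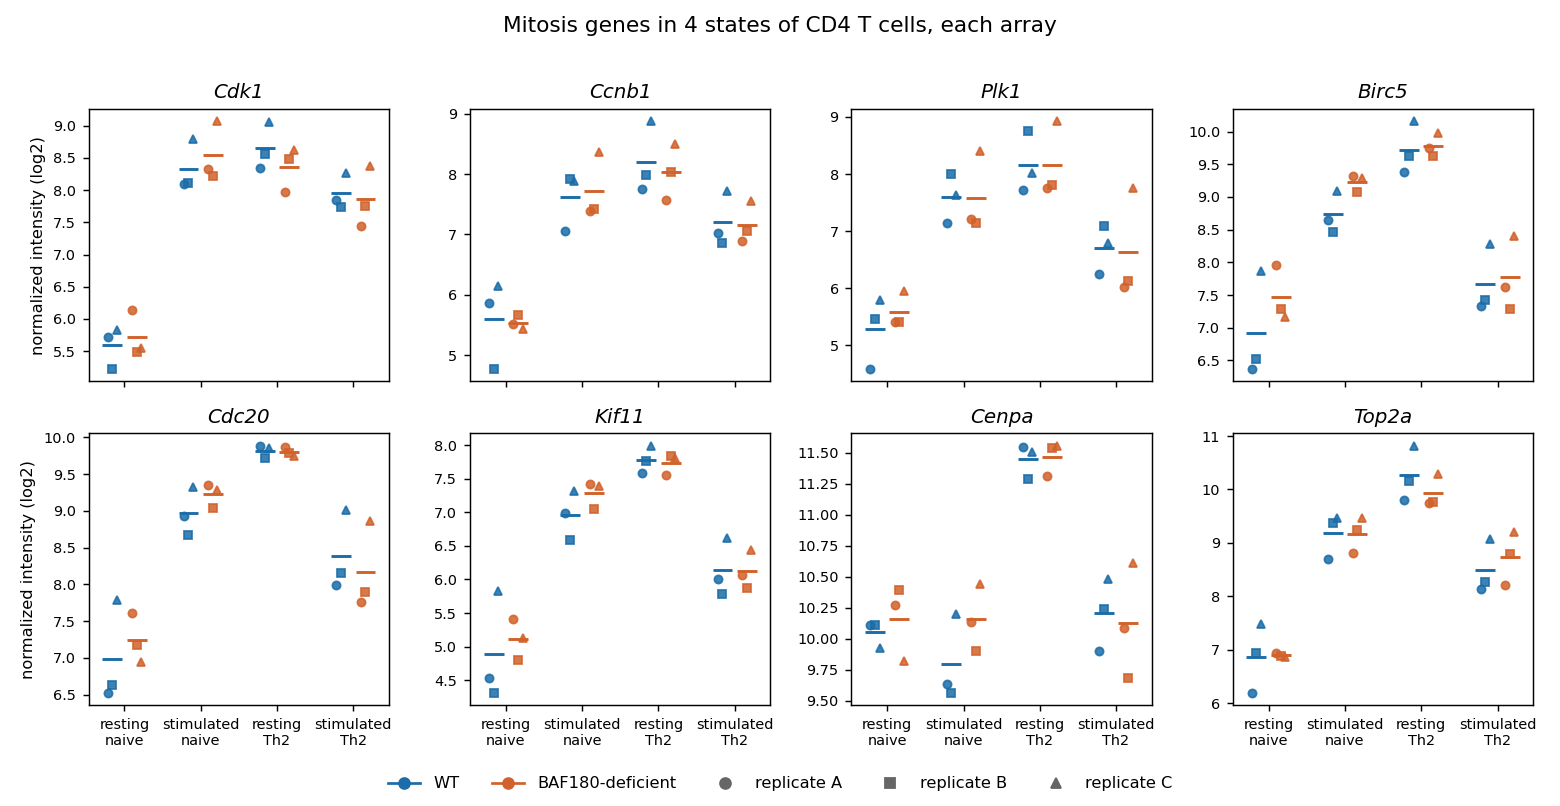
Log2 normalized intensity (vertical axis, separate scale for each gene) of 8 mitosis genes in the 4 cell states, with each array as a point (WT blue, BAF180-deficient orange, marker shape by replicate) and the mean of each group of 3 as a bar. The mean is lowest in resting naive cells for 7 of the 8 genes in WT cells, and Cenpa lies between 11.29 and 11.56 in resting Th2 cells of either genotype.

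Plk1, the Polo kinase, acts from entry into mitosis to cytokinesis. Plk1 read 4.59, 5.46 and 5.79 on WT resting naive arrays A, B and C, 7.14, 8.01 and 7.64 on stimulated naive, 7.72, 8.76 and 8.02 on resting Th2 and 6.26, 7.09 and 6.80 on stimulated Th2 arrays. In BAF180-deficient cells Plk1 read 5.41, 5.41 and 5.96, 7.21, 7.14 and 8.40, 7.76, 7.81 and 8.92 and 6.02, 6.12 and 7.75 in the same order. Resting naive arrays did not overlap with any other state in either genotype, and the replicates of the other states spread over more than 0.8 on the log2 scale. Plk1 rose at least 4.51-fold with naive stimulation in WT cells (log2 2.32, SE 0.45, limma adjusted p 0.000281) and fell by 1.45 with Th2 stimulation (limma adjusted p 0.0197), a call lost without resting Th2 replicate B or stimulated Th2 replicate A.

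The chromosomal passenger complex, which corrects faulty attachments of chromosomes, holds the kinase Aurkb (no probe), the scaffold Incenp, survivin (Birc5) and borealin (Cdca8). Birc5 read 6.37, 6.52 and 7.87 on WT resting naive arrays A, B and C and 8.65, 8.47 and 9.09 after stimulation. Birc5 was at 9.38, 9.62 and 10.15 in WT resting Th2 and 7.33, 7.42 and 8.27 in stimulated Th2 cells. WT resting naive replicate C was the highest of its group and lay within the range of stimulated Th2 cells. In BAF180-deficient cells Birc5 read 7.95, 7.28 and 7.17, 9.31, 9.07 and 9.29, 9.75, 9.63 and 9.97 and 7.63, 7.29 and 8.40 in the same order, where resting naive and stimulated Th2 arrays again overlapped. Birc5 rose 3.52-fold with naive stimulation (log2 1.82, limma adjusted p 0.000243) and fell by 2.04 with Th2 stimulation in WT cells (limma adjusted p 0.000136). All 6 tested genes of the kinase and passenger group rose with naive stimulation in both genotypes, from Incenp with 1.23 to Plk1 in WT cells, and all 6 fell with Th2 stimulation in WT cells. Aurora A (Aurka), the kinase of the spindle poles, was at 8.29 in stimulated naive and 8.37 in resting Th2 WT cells, a difference of 0.08 that did not pass. The kinase Melk, undetected in resting naive cells, was at least 1.98-fold higher in stimulated naive WT cells (limma adjusted p 2.84e-06). Melk was tested only because states other than resting naive detected it, so no conclusion is drawn from that call. In BAF180-deficient cells Melk was lower in resting Th2 than in stimulated naive cells, by 0.53 on the log2 scale (limma adjusted p 0.0375), and in WT cells the difference was -0.27 and did not pass. The call in BAF180-deficient cells was lost without any 1 of 5 of the 6 arrays compared, the exception being stimulated naive replicate B.

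Bub1, a kinase of the spindle checkpoint, which holds back anaphase until every chromosome is attached, was detected on no array, and its levels lay between 4.15 and 4.36 on all 24. BubR1 (Bub1b), a partner in the checkpoint, rose at least 1.84-fold with naive stimulation in WT cells (log2 1.31, limma adjusted p 0.000468), and in BAF180-deficient cells, where no resting naive array detected it, it was at least 2.26-fold higher. Mad2 (Mad2l1) rose by 1.73 with naive stimulation in WT cells, and with Th2 stimulation it differed by -0.66, which did not pass (limma adjusted p 0.219). Ttk, the kinase Mps1, was detected on 4 arrays and went undetected in resting and stimulated naive WT cells. In this group of 5 tested genes 3 rose with naive stimulation in WT cells.

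Cdc20 is the activator that lets the anaphase-promoting complex start anaphase. Cdc20 read 6.52, 6.63 and 7.79 on WT resting naive arrays A, B and C and 8.93, 8.67 and 9.32 after stimulation. Its levels were 9.89, 9.72 and 9.85 in WT resting Th2 and 7.99, 8.15 and 9.02 in WT stimulated Th2 cells. The resting Th2 arrays lay within 0.2 of each other and above every array of the other states. In BAF180-deficient cells Cdc20 read 7.61, 7.18 and 6.94, 9.36, 9.04 and 9.28, 9.86, 9.78 and 9.75 and 7.76, 7.90 and 8.86 in the same order, with the same placing of resting Th2 cells. Cdc20 rose 3.98-fold with naive stimulation (log2 1.99, limma adjusted p 3.07e-05) and fell by 1.43 with Th2 stimulation in WT cells (limma adjusted p 0.00161). Ube2c, the ubiquitin-conjugating enzyme of the same complex, was detected on 4 arrays, the 3 BAF180-deficient resting Th2 arrays and WT stimulated Th2 replicate C. Ube2c read 4.72, 4.80 and 4.76 on BAF180-deficient resting Th2 arrays A, B and C and 4.46, 4.31 and 4.28 on WT ones.

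Kif11 is the motor that pushes the spindle poles apart. Kif11 read 4.53, 4.31 and 5.82 on WT resting naive arrays A, B and C and 6.99, 6.58 and 7.31 after stimulation. WT resting Th2 cells gave Kif11 levels of 7.58, 7.76 and 7.99 and stimulated Th2 cells of 6.01, 5.79 and 6.62. WT resting naive replicate C was again the highest of its group, by more than 1.2, and reached the lower end of stimulated Th2 cells. In BAF180-deficient cells Kif11 read 5.41, 4.80 and 5.14, 7.42, 7.05 and 7.40, 7.55, 7.83 and 7.81 and 6.06, 5.87 and 6.44 in the same order, and no array of resting naive cells reached another state. Kif11 rose at least 3.3-fold with naive stimulation in WT cells (log2 2.08, limma adjusted p 1.03e-05) and stood at least 5.8-fold higher in resting Th2 than in resting naive cells.

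All 8 tested genes among the kinesins and spindle proteins rose with naive stimulation in both genotypes. All 8 fell with Th2 stimulation, though the call of Tpx2 depended on single arrays in both genotypes. Kif2c, a motor that takes microtubules apart, rose most with naive stimulation in WT cells (2.35, limma adjusted p 1.6e-06), and Nusap1, which bundles spindle microtubules near chromosomes, least (0.96, limma adjusted p 0.0143). This call of Nusap1 was lost without WT resting naive replicate B or WT stimulated naive replicate C. Nusap1 instead had the largest step from stimulated naive to resting Th2 WT cells. Nusap1 read 7.93, 8.06 and 8.66 on WT stimulated naive arrays, 10.11, 10.05 and 10.27 on resting Th2 arrays and 6.91, 6.79 and 8.03 on stimulated Th2 arrays. The resting Th2 arrays were far above the others, and stimulated Th2 cells were back within or below the resting naive values of 7.12, 6.88 and 7.79, apart from replicate C at 8.03. The step up was 1.92 (limma adjusted p 8.46e-05), and the fall with Th2 stimulation 2.89 on the log2 scale, or 7.44-fold (limma adjusted p 3.82e-07), the largest among the members. Prc1, which ties together the microtubules of the spindle midzone, rose by 1.29 from stimulated naive to resting Th2 cells and fell by 2.00 with Th2 stimulation in WT cells. Kif22, a motor on chromosome arms, rose by 1.27 in the first of these comparisons and fell by 2.32 in the other (limma adjusted p 0.00049 and 2.84e-07). Tpx2, a spindle assembly factor undetected in WT resting naive cells, was at least 1.75-fold higher in stimulated naive and at least 2.98-fold higher in resting Th2 cells of that genotype.

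Cenpa encodes the histone that marks centromeres. Cenpa read 10.12, 10.11 and 9.93 on WT resting naive arrays A, B and C, 9.64, 9.56 and 10.20 on stimulated naive, 11.55, 11.29 and 11.50 on resting Th2 and 9.90, 10.24 and 10.48 on stimulated Th2 arrays. In BAF180-deficient cells it read 10.28, 10.40 and 9.82, 10.13, 9.90 and 10.45, 11.31, 11.54 and 11.56 and 10.09, 9.68 and 10.61 in the same order. Only the resting Th2 arrays stood apart, above every array of the other states in each genotype, and the 3 other states overlapped. Its difference between stimulated and resting naive cells was -0.25 in WT (limma adjusted p 0.388) and 0.00 in BAF180-deficient cells (limma adjusted p 0.989), and neither passed. From stimulated naive to resting Th2 cells Cenpa rose by 1.65 in WT and 1.31 in BAF180-deficient cells (limma adjusted p 1.29e-05 and 0.000184), and it fell by 1.24 with Th2 stimulation in WT cells.

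Of the kinetochore genes, Ndc80 and its partners Spc24 and Spc25 belong to the complex that binds microtubules, as does Nuf2, which was not detected. Ndc80 rose by 1.07 with naive stimulation in WT cells (limma adjusted p 0.00203) and by 0.87 more in resting Th2 cells (limma adjusted p 0.0186). Spc25, undetected in resting naive cells, was at least 2.22-fold higher in stimulated naive and at least 4.65-fold higher in resting Th2 WT cells. Spc24 rose by 1.04 with naive stimulation in WT cells (limma adjusted p 0.0017), and its differences between resting Th2 and resting naive cells, 0.61, and between resting Th2 and stimulated naive cells, -0.43, did not pass. By another probe of Spc24 the first of these differences passed (limma adjusted p 0.000571) and the other was 0.25 and did not pass, so these values depend on the probe. By the brightest probe the difference of 0.61 passed with the replicate letter as a block (limma adjusted p 0.0499). Cenph, also undetected in resting naive cells, was at least 1.33-fold higher in resting Th2 WT cells (limma adjusted p 0.0205). That call was lost without WT resting naive replicate B or WT resting Th2 replicate C. Spc25 and Cenph were tested only because states other than resting naive detected them. No conclusion is drawn from their differences from resting naive cells. The difference of Cenph with naive stimulation passed in BAF180-deficient cells (limma adjusted p 0.0017). In WT cells it had a limma adjusted p of 0.0695, and of 0.0081 with the replicate letter as a block. The test of the difference between the genotypes in that response did not pass for Cenph (limma adjusted p 1).

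Of the cytokinesis genes only anillin (Anln), a scaffold of the contractile ring, was tested, since Ect2 was detected on no array and Racgap1 had no probe. Anln rose by 1.56 with naive stimulation and by a further 1.04 in resting Th2 cells, and fell by 1.45 with Th2 stimulation in WT cells (limma adjusted p 0.000664, 0.0277 and 0.0023).

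Top2a, the topoisomerase that untangles sister chromosomes, had the largest rise from resting naive to resting Th2 cells. Top2a read 6.19, 6.94 and 7.49 on WT resting naive arrays A, B and C and 8.69, 9.37 and 9.47 on stimulated naive arrays. Top2a was at 9.80, 10.17 and 10.82 in WT resting Th2 and 8.13, 8.27 and 9.08 in WT stimulated Th2 cells. The 3 arrays of each activated state lay above all resting naive arrays, and the resting Th2 arrays were the highest. In BAF180-deficient cells Top2a read 6.94, 6.89 and 6.87, 8.81, 9.25 and 9.47, 9.74, 9.77 and 10.29 and 8.21, 8.80 and 9.21 in the same order of states. The resting naive BAF180-deficient arrays were within 0.1 of each other, and the WT ones spread over 1.3. The rise to resting Th2 was 10.5-fold in WT (log2 3.39, limma adjusted p 1.17e-07) and 8.2-fold in BAF180-deficient cells.

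Of condensin, which compacts mitotic chromosomes, Ncapd2 and Ncaph were tested, while Smc2 was detected on no array and Ncapg and Smc4 had no probe. Ncapd2 rose by 1.20 with naive stimulation in WT cells and by 1.53 from there to resting Th2 cells (limma adjusted p 0.0161 and 0.00613). The first call was lost without any 1 of 3 of the 6 arrays, and the other without WT stimulated naive replicate A. Ncaph rose by 1.48 and 0.84 in the same comparisons (limma adjusted p 1.22e-05 and 0.00724). Sororin (Cdca5), which holds sister chromatids together, was undetected in WT resting naive cells and at least 2.99-fold higher after stimulation (limma adjusted p 1.25e-05). Its difference with Th2 stimulation did not pass (log2 -0.81, limma adjusted p 0.0621) and passed with the replicate letter as a block (limma adjusted p 0.0119).

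Loss of BAF180 was compared with WT within each state, by the 4 criteria of the study's methods, computed here from limma: Z-ratio over 1.5 in size, false discovery rate under 0.30, unadjusted p under 0.05 and positive mean signal. No mitosis gene met them in any state, 0 of 34 higher and 0 lower. Among all 10418 genes 0.442% were higher and 0.317% lower in BAF180-deficient resting naive cells. The shares were 0.0576% and 0.0576% in stimulated naive, 0.0384% and 0.0672% in resting Th2, then 0.0192% and 0.0768% in stimulated Th2 cells. At an unadjusted limma p below 0.05 the members numbered 1, 2, 1 and 0 in these states, and all genes 750, 241, 373 and 299. The member medians were 0.12, 0.21, -0.04 and 0.01 on the log2 scale, and those of all genes 0.00, 0.01, 0.00 and 0.00. Leaving out single arrays moved these medians to between 0.03 and 0.24 in resting naive and 0.11 and 0.38 in stimulated naive cells. The ranges were -0.16 to 0.08 in resting Th2 and -0.15 to 0.25 in stimulated Th2 cells. The sign thus changed with the array left out in the last 2 states. It held in the naive states, which does not settle it there. In stimulated naive cells 31 of 34 members had a positive difference, without any that passed. The share of all genes with a positive difference is not given, and members measured on the same arrays are not independent. In stimulated naive cells the member median (log2 minus gene means) of each BAF180-deficient array was above that of the WT array of its letter. The values were 0.41 against 0.14 (A), 0.38 against 0.10 (B) and 0.75 against 0.63 (C). In each other state the sign differed between letters. With the replicate letter as a block no member met the criteria either. A difference that fails the test is not shown to be absent, and the 95% confidence intervals of single members commonly reached beyond 0.5 on the log2 scale on at least 1 side. By group means the CD8 marker sum was lower in BAF180-deficient cells of each state. It was 406, 244, 276 and 254 in WT and 373, 150, 167 and 177 in BAF180-deficient cells, in the same order of states. Its part in these differences was not tested.

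**Figure D3:**
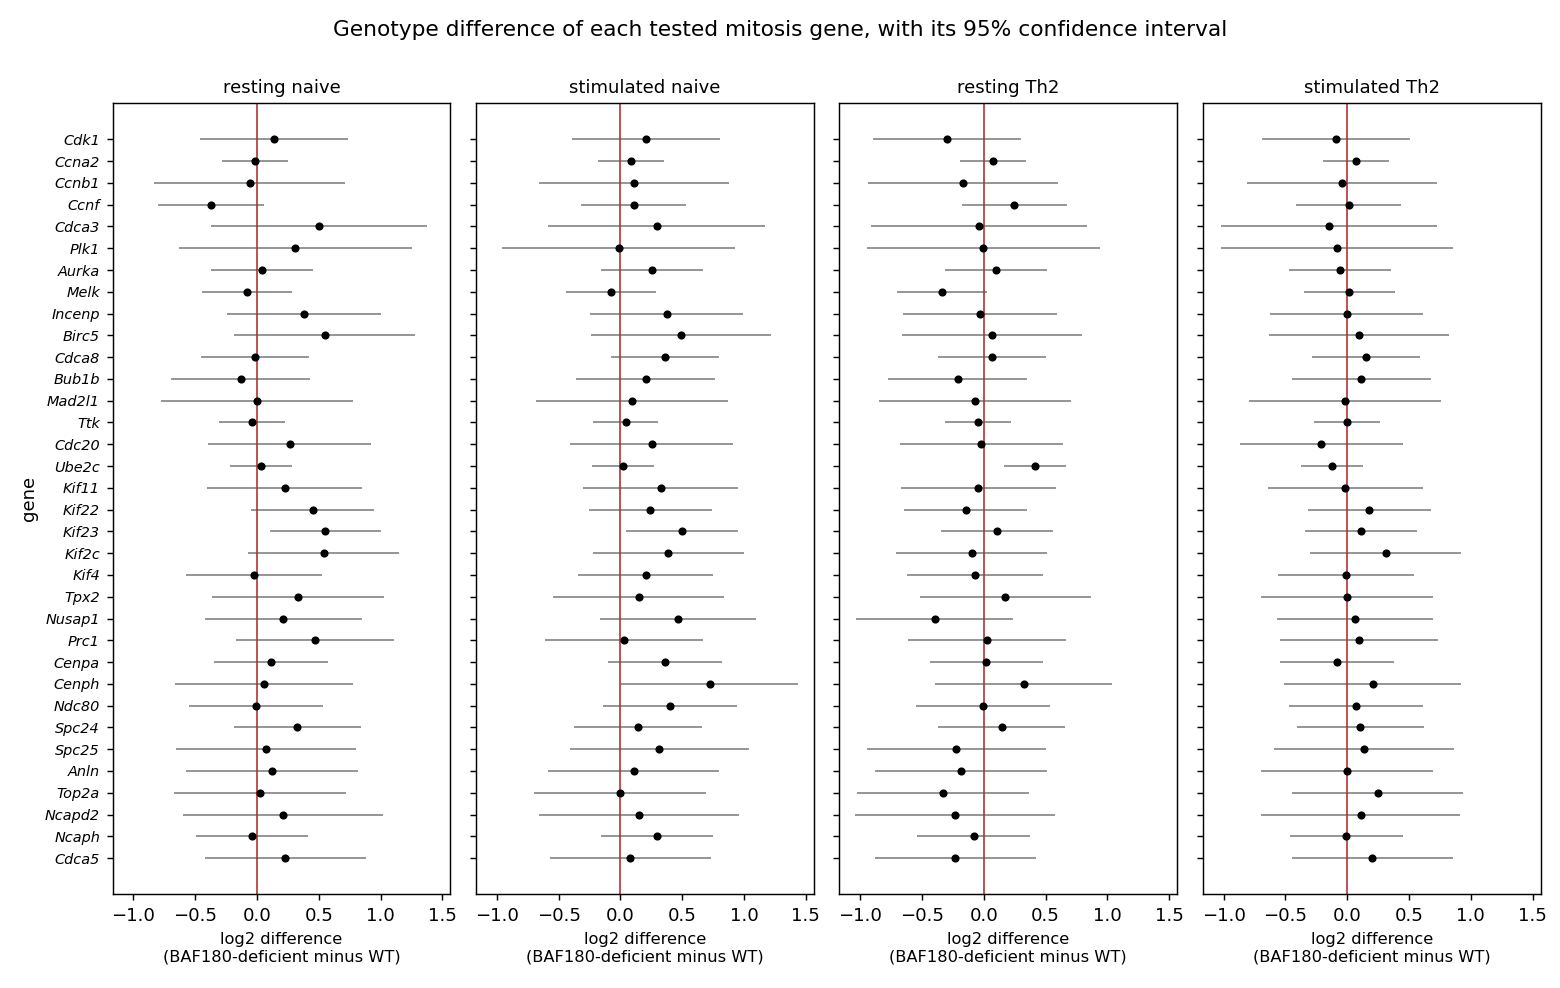
Log2 difference between BAF180-deficient and WT cells (horizontal axis, point with its 95% confidence interval from limma) for each of the 34 tested mitosis genes in each of the 4 states. None meets the 4 criteria, and the medians over the genes are 0.12, 0.21, -0.04 and 0.01 from left to right.

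The members with the lowest p between genotypes were as follows. Kif23, a motor of the spindle midzone, read 5.78, 5.81 and 5.93 on WT and 6.33, 6.69 and 6.17 on BAF180-deficient resting naive arrays A, B and C, and 6.71, 6.57 and 7.28 against 7.44, 7.18 and 7.43 on stimulated naive arrays. The BAF180-deficient arrays were all above the WT ones in resting naive cells, and in stimulated naive cells the ranges overlapped. Each BAF180-deficient stimulated naive array was nevertheless above the WT array of its letter. The differences were 0.55 (95% interval 0.10 to 1.01, limma adjusted p 0.612) and 0.50 (0.05 to 0.95, limma adjusted p 1). Next in resting naive cells came Kif22 (0.45) and Kif2c (0.54, or 0.30 with an undetected WT array raised), and in stimulated naive cells Cenph (0.72, or 0.66 likewise) and Cdca8 (0.36).

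In resting Th2 cells Ube2c, whose values are given above, was detected on every BAF180-deficient array and on no WT array, a difference of at least 1.12-fold that did not meet the 4 criteria (limma adjusted p 0.662). Melk (-0.34) and Nusap1 (-0.40) followed. In stimulated Th2 cells the lowest p were those of Kif2c (0.31), Ube2c (undetected in BAF180-deficient cells) and Kif22 (0.18), each with an adjusted p of 1.

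The count in resting naive cells depended on the array that stood apart. Without WT resting naive replicate C, 3 members (Kif11, Kif22 and Kif2c) met the 4 criteria, all higher in BAF180-deficient cells, in place of 0, and the share of all genes higher was 2.38%. On that array these genes read 5.82, 6.94 and 5.83, against 4.53 and 4.31, 6.00 and 6.34, and 4.31 and 4.88 on replicates A and B. Kif11 was undetected on A and B, and Kif2c on A, so the calls of these 2 genes use signals under the limit. Over all 3 arrays, with undetected ones raised, the Kif11 difference between genotypes was -0.13. Without WT resting naive replicate C the member median between genotypes was 0.24 in place of 0.12. Within its group 22 of the 34 members were brightest on this array. The part of other cells in these values was not tested.

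Whether the response of the members differed between genotypes was tested as an interaction. No member passed for the response to naive stimulation, where 0.00960% of all genes did, to Th2 stimulation, where 0% did, or for resting Th2 against resting naive cells, where 0.00960% did (limma, adjusted p below 0.05). Of the members, 0, 1 and 2 had an unadjusted limma p under 0.05 in these tests, and of all genes 237, 187 and 298. The lowest p for naive stimulation were those of Ccnf (0.48), Cenph and Cdca8 (0.38), and for Th2 stimulation those of Ube2c, Melk (0.36) and Top2a (0.58). For resting Th2 against resting naive cells they were Ube2c, Ccnf (0.62) and Kif22 (-0.60), each as the BAF180-deficient minus the WT log2 response. No value is given for Ube2c and Cenph, which were undetected in groups compared, and those of Ccnf and Melk use signals under the limit on some arrays. In this last comparison the member median was -0.26, with 27 of 34 negative, and that of all genes 0.00. The share of all genes that were negative is not given, and the members are not independent of each other. The member median depended on the scaling, at -0.04 under Z-score normalization and -0.16 without background correction.

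Replicates varied together. Replicate C was the brightest array of its group for 28 of 34 members in WT stimulated naive, 25 in WT resting Th2 and 29 in WT stimulated Th2 cells. In BAF180-deficient cells the numbers were 22, 22 and 32 in those states. Over all genes the C array was brightest for 29.0% to 37.4% of genes in these 6 groups. Relative to the group mean, the median member was 0.50 higher on WT and 0.45 higher on BAF180-deficient stimulated Th2 replicate C. BAF180-deficient resting naive cells were the exception, with 7 members brightest on C and 19 on A. The labels do not say what the letters share. The B cell marker sum was highest on replicate C in 7 of the 8 groups (1185 against 466 and 483 in BAF180-deficient resting naive cells, for example). In WT stimulated naive cells, where 28 members were brightest on C, it was highest on A (297, against 206 on B and 240 on C). The CD8 marker sum, with Cd8b1 the brightest, was highest on replicate C in all 8 groups (359 against 248 and 222 in WT resting Th2 cells, for example), and the part of these in the levels of the members was not tested.

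Genes that were not among the members but act beside them were counted from lists of the same pathway. Of 49 other tested mitosis genes 33 rose and 3 fell with naive stimulation in WT cells, against 23.3% and 21.9% of all genes, with a median of 0.74 (0.66 with bounds). The largest fitted differences were those of the kinesin Kif15 (2.70), the cohesin protector Sgo1 (2.36) and the centromere protein Cenpn (2.28). Each was detected on 1 WT resting naive array only, and with the others raised to their limit the values were 2.44, 1.86 and 1.83. From stimulated naive to resting Th2 cells 10 of the 49 rose and 0 fell, against 11.4% and 12.1% of all genes in WT cells. With Th2 stimulation 25 fell and 0 rose, against 15.9% and 12.5%. Cdc25b, the phosphatase that activates Cdk1, was chosen for mention after its values were seen: it fell by 0.78 with naive stimulation, rose by 2.93 from there to resting Th2 cells and fell by 3.08 with Th2 stimulation (limma adjusted p 0.00274, 2.06e-09 and 3.61e-10). It was undetected on 1 array each of WT stimulated naive and stimulated Th2 cells, and with these raised the values were 0.69, 2.83 and 2.99.

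Of 22 tested DNA replication genes 21 rose with naive stimulation in WT cells, against 23.3% of all genes, with a median of 2.01 (1.98 with bounds). The largest differences were those of Mcm10 (4.14), Cdc45 (3.29) and Cdc6 (3.05), which open and load replication origins. With undetected resting naive arrays raised these 3 stood at 4.05, 3.03 and 2.87. Mcm10 read 4.77, 4.86 and 5.83 on WT resting naive arrays, 8.87, 9.51 and 9.49 on stimulated naive and 8.19, 8.32 and 8.91 on resting Th2 arrays. It was highest in stimulated naive cells, apart from an overlap of resting Th2 replicate C (8.91) with stimulated naive replicate A (8.87). From stimulated naive to resting Th2 cells 0 of 22 rose and 1 fell in WT, where 12.1% of all genes fell, with a median of -0.30 against 0.77 for the members. The median of the list on single arrays overlapped between these states, at 0.53 to 0.97 in WT stimulated naive and 0.36 to 0.88 in WT resting Th2 cells. In BAF180-deficient cells 0 rose and 3 fell, where 11.1% of all genes fell, with a median of -0.44 (-0.41 with bounds). In both genotypes the number that fell was near or below the share of all genes and does not set this list apart. With the replicate letter as a block the numbers that fell were 5 in WT and 6 in BAF180-deficient cells. No share of all genes is given for the fit with the block. With Th2 stimulation 6 of 22 fell and 0 rose in WT cells, against 15.9% and 12.5% of all genes, with a median of -0.48.

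**Figure D4:**
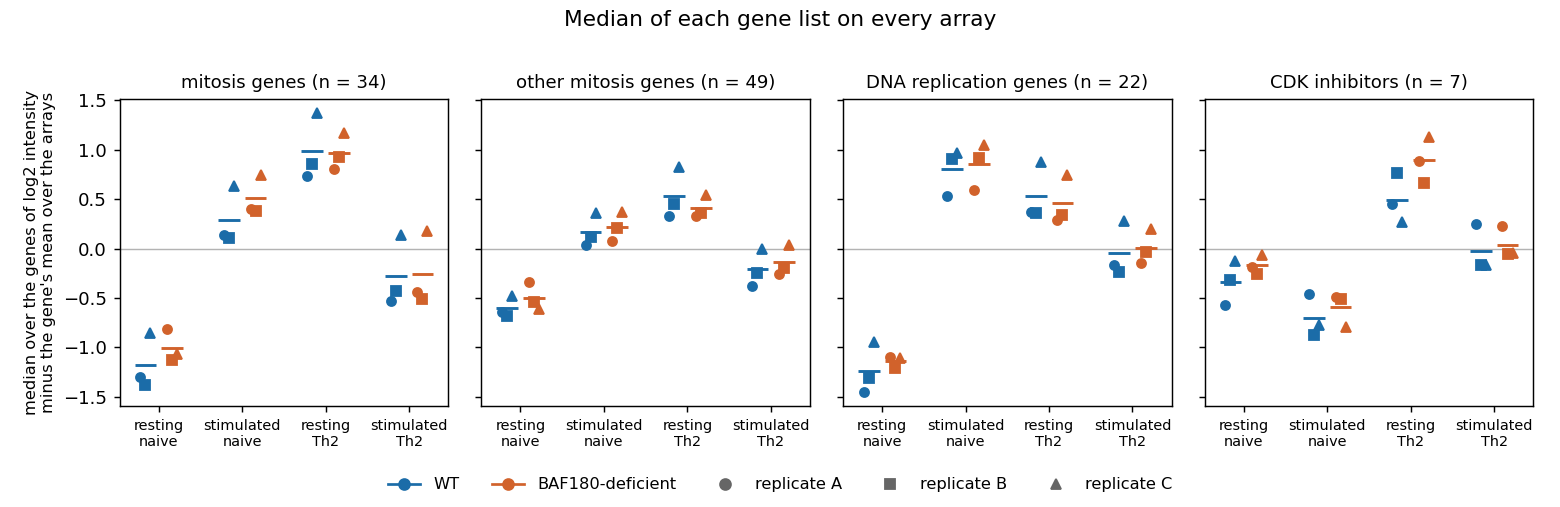
For each array (points, WT blue, BAF180-deficient orange, bars the means of 3 arrays), the median over the tested genes of a list of log2 intensity minus the mean of the gene over all arrays. By the means, mitosis genes and other mitosis genes are highest in resting Th2 cells, DNA replication genes in stimulated naive cells, where arrays overlap with resting Th2 cells, and CDK inhibitors are lowest in stimulated naive cells.

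Of 16 tested transcription factors of cell cycle genes 9 rose and 0 fell with naive stimulation in WT cells, against 23.3% and 21.9% of all genes, with a median of 0.53. The largest were E2f1 (2.09), its partner Tfdp1 (2.09) and B-Myb (Mybl2, 2.00, or 1.76 with an undetected array raised). Foxm1, known as an activator of mitosis genes, read 4.43, 5.36 and 5.29 in WT resting naive, 6.39, 5.77 and 6.35 in stimulated naive and 6.74, 7.05 and 7.39 in resting Th2 cells. Of these 3 states Foxm1 was highest in resting Th2 cells, whereas E2f1 fell by 0.66 from stimulated naive to resting Th2 cells (limma adjusted p 0.015). With Th2 stimulation 7 of the 16 fell and 1 rose in WT cells, against 15.9% and 12.5% of all genes.

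The CDK inhibitors, which restrain the cycle, are a list of 7. With naive stimulation 0 rose and 2 fell in WT cells, p27 (Cdkn1b) by 3.05 and Cdkn1c by 1.09 on the log2 scale (limma adjusted p 9.08e-10 and 7.36e-05). Of all genes 23.3% rose and 21.9% fell there, so the count that fell does not set this short list apart. From stimulated naive to resting Th2 cells all 7 rose in each genotype, with a median of 1.49 in WT and 1.53 in BAF180-deficient cells, in the state where most mitosis genes were also highest. Of all genes 11.4% rose in that comparison in WT and 10.9% in BAF180-deficient cells. The largest values with naive stimulation in WT cells were those of Cdkn1a (1.12), Cdkn2b and Cdkn2a, none of which passed. Cdkn2b and Cdkn2a were undetected in WT resting naive cells. With the replicate letter as a block Cdkn1a passed (limma adjusted p 0.00501).

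Cdkn1a encodes p21, an inhibitor that keeps mitosis genes repressed in arrested cells. Cdkn1a read 7.02, 6.75 and 5.30 on WT resting naive arrays A, B and C and 8.11, 8.04 and 5.96 on BAF180-deficient ones. The levels were 7.90, 7.43 and 7.11 and 8.08, 7.97 and 7.35 in stimulated naive, 9.82, 9.53 and 8.75 and 10.28, 10.28 and 9.52 in resting Th2 cells, WT before BAF180-deficient. In stimulated Th2 cells they lay between 8.79 and 9.37 in WT and between 8.92 and 9.04 in BAF180-deficient cells. Replicate C was the lowest array of every group, and the ranges of the genotypes overlapped in each state. Between arrays of the same letter the BAF180-deficient array was the higher in all 3 pairs of resting naive, of stimulated naive and of resting Th2 cells. The differences between genotypes were 1.01, 0.33, 0.66 and -0.01, none of which met the 4 criteria (limma adjusted p 0.711 in resting naive cells and above that elsewhere). With the replicate letter as a block none met them either, with a limma adjusted p of 0.338 in resting naive cells.

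The promoters of the members were searched for the elements named above, because such elements are known for genes of this kind. RefSeq promoters (GRCm38.p6, 250 bases before to 50 after the start of transcription) were at hand for 41 of the 48 genes, 43 promoters in all, and for Kif20a, Ccna2, Incenp, Tpx2, Spc24, Smc4 and Aurkb there was no entry. The cell cycle gene homology region was searched as TTTGAA or TTCGAA and the CCAAT box as CCAAT, on both strands. The first was found in 34 of 43 member promoters (79.1%) against 19.2% of all 32851 promoters. CCAAT was in 33 (76.7%) against 37.4%, at least 2 CCAAT boxes in 22 (51.2%) against 11.7%, and both elements in 30 (69.8%) against 7.52%.

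The window of 50 bases and the spacing of 31 to 34 bases were chosen after the positions in member promoters had been read. The shares of members given here can be raised by that choice and are no test. The first element started within 50 bases before the start of transcription, or after it, in 31 of 43 member promoters (72.1%) against 5.31% of all promoters. A pair of CCAAT boxes whose starts lay 31 to 34 bases apart was found in 9 member promoters (Aurka, Ccnb1, Ccnb2, Cdca3, Cdca8, Cdk1, Hmmr, Spc25 and Ube2c), 20.9%, against 1.2% of all promoters. Among promoters with at least 2 boxes these were 9 of 22, or 40.9%, against 10.2%. Neither element was found for Birc5, Mad2l1, Melk, Ncaph, Nuf2 and Nusap1 in this window. A match is a stretch of letters and says nothing on whether a factor binds there.

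Promoters are shown for the first gene listed in each role group, all of which hold both elements, printed 5' to 3' along the strand of the gene with the elements of either strand in capitals (GRCm38.p6, RefSeq). Cdk1 lies on the minus strand at chr10:69352863-69353162, Plk1 on the plus strand at chr7:122159185-122159484, Bub1 on the minus strand at chr2:127831810-127832109 and Kif11 on the plus strand at chr19:37376132-37376431. Cenpa lies on the plus strand at chr5:30666636-30666935, Racgap1, which has no probe, on the minus strand at chr15:99651607-99651906, and Top2a on the minus strand at chr11:99024140-99024439. Cdk1 holds 3 CCAAT boxes and 2 copies of the other element, and Top2a 6 and 4.
Cdk1: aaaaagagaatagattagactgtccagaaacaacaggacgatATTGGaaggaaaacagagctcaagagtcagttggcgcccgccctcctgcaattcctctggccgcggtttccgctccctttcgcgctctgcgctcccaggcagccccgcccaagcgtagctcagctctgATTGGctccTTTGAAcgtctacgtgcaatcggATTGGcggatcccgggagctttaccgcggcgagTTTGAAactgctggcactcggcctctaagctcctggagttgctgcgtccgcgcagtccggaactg
Plk1: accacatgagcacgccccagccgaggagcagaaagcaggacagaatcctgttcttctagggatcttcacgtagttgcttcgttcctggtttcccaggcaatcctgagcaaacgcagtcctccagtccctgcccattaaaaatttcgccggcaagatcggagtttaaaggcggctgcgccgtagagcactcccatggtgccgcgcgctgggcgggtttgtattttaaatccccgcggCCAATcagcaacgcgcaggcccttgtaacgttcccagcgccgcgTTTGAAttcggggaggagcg
Bub1: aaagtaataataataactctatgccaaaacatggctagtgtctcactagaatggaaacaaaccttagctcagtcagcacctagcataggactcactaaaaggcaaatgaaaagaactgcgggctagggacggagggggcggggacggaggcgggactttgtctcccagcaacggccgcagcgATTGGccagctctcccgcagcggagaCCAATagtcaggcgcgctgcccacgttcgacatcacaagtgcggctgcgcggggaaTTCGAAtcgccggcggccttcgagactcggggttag
Kif11: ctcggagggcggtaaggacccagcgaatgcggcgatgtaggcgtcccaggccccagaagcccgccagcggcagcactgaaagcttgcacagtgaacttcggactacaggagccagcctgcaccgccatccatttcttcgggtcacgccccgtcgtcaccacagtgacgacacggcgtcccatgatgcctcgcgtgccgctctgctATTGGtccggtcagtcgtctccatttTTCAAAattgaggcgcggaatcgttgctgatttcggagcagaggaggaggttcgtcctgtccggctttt
Cenpa: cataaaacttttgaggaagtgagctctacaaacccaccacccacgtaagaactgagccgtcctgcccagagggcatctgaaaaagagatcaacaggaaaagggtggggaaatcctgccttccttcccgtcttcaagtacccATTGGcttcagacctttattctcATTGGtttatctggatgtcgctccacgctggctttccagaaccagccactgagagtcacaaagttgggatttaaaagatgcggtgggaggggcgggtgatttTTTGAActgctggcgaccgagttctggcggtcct
Racgap1: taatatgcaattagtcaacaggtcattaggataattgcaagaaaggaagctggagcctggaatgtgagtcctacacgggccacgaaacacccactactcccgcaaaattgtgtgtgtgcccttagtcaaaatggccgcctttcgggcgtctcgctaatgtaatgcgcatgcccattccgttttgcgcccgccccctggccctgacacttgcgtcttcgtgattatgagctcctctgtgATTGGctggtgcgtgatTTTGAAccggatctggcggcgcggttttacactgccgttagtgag
Top2a: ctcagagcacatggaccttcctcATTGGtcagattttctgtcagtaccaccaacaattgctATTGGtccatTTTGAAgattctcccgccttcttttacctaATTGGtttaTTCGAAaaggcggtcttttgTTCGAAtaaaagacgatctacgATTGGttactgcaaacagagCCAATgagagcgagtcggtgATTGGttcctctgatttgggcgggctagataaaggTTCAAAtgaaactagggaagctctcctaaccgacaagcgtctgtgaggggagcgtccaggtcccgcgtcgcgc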

How the data were processed

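The intensity values are those the authors deposited: average bead intensities per probe from GenomeStudio, with no normalization and no background subtraction. The detection p-value of each probe on each array, also deposited by the authors, came from the same software and compares the probe with negative controls. The labels name GenomeStudio 1.6.0, and the methods of the study another version. Background correction and quantile normalization over the 24 arrays used neqc (offset 16) of limma 3.58.1 in R 4.3.3. Kept were 14246 of 25697 probes, those with a detection p-value of at most 0.02 on at least 1 array. A model of 8 group means was fitted with limma, moderated and adjusted by the method of Benjamini and Hochberg over all kept probes, with 16 residual degrees of freedom, 20.3 after moderation. A gene is represented by its brightest kept probe.

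State comparisons and interactions were called at adjusted p below 0.05 and genotype comparisons by the 4 criteria. The code was tested on simulated data. Members and lists were chosen with earlier results of these data known. Array values are given for the first gene of each role group and for Ccnb1, Ccna2, Cdc20 and Birc5, with Bub1 as a range. The rule also names Racgap1, Aurkb and Mki67, which have no probe in the table used here. Named besides are the 5 largest and 5 smallest WT state differences, the extremes of role groups, the 3 lowest p between genotypes, the 3 largest of each other list, Pbrm1 and Cdkn1a. Other members are named for their roles.

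The study states that its arrays came from 3 pairs of mice, 1 of each genotype, and neither its text nor the labels say that the replicate letters mark these pairs. Read as pairs, the letters gave correlations of 0.301 (A), 0.136 (B) and 0.516 (C) between the genotypes after group means were removed, and of -0.00263 to 0.662 in single states. The letters were left out of the model and tried as a block. Alternatives were normalization by Z-score, no background correction, other detection filters, any probe of a gene, only the arrays compared, leaving out each array, and members without those matched through an accession. The last of these, the block for single genes and the folds with arrays raised to the detection limit were added after the values were seen. Figures used Python 3.11.15 and matplotlib 3.10.9.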

Additional observations from a re-analysis of the deposited data

How the results depend on the processing

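The median of the members with naive stimulation in WT cells was 1.13 with Z-score normalization and 1.06 without background correction, and from resting naive to resting Th2 cells 1.86 and 1.77. For resting Th2 against stimulated naive WT cells the count was 8 and the median 0.51 without a detection filter, and without single arrays the count ran from 6 to 17 and the median from 0.54 to 0.94. In BAF180-deficient cells that count was 11 with only the arrays compared and 4 to 6 without single arrays. The genotype count in resting naive cells was 0 to 3 without single arrays, 3 without WT resting naive replicate C. With the replicate letter as a block no count of the mitosis genes changed more than 1.5 times and no member call was lost: the count for resting Th2 against stimulated naive WT cells was 19 with the replicate block. Calls gained with the block by members were, in WT cells, Cenph with naive stimulation, Spc24 from resting naive to resting Th2, Cdca3, Cdc20, Kif11, Kif4 and Tpx2 from stimulated naive to resting Th2, and Cdk1 and Cdca5 with Th2 stimulation. In BAF180-deficient cells they were Tpx2 and Top2a from stimulated naive to resting Th2, and Ccnb1 and Spc25 with Th2 stimulation. Shares of all genes are not given for the fit with the replicate block. A block for the BeadChip was not run, since no chip is named.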
